A study of Homo sapiens with 10 samples.

Results

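The chemokine genes described here are the CXC members CXCL1, CXCL2, CXCL3, CXCL5, CXCL6 and CXCL8 and the CC members CCL2, CCL5, CCL7 and CCL20. They were taken by symbol from the deposited table of 58735 genes, and all 10 were found once. The cells were CH157-MN, a line established from a human meningioma, a tumour of the membranes around the brain. The ADC group held 5 libraries of cells given 100 nM of a humanised antibody against the somatostatin receptor SSTR2 that carries MMAF, an inhibitor of tubulin polymerisation, and harvested 3 days later. The PBS group held 5 libraries of the same line given phosphate-buffered saline, for which the labels state no day of harvest. The line is one tumour-derived culture, and neither group received the antibody without its payload, so the parts of the conjugate cannot be told apart.

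Chemokines are small secreted proteins that bind receptors on leukocytes and guide their migration. CXC members with a Glu-Leu-Arg motif before the CXC cysteines, to which all 6 CXC members here belong, act on CXCR2 (and some on CXCR1) and attract mainly neutrophils, while CC members attract monocytes, lymphocytes and dendritic cells. Many chemokine genes are transcribed at low levels until interleukin 1, tumour necrosis factor or other signals activate NF-kB, and their mRNAs are typically short-lived.

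Of the 10 genes, 7 were higher after ADC, 0 were lower, CCL20 was tested without passing, and CCL5 and CCL7 had too few counts to be tested. Of all 14504 tested genes 20.8% were called, 10.8% as higher and the others as lower (edgeR quasi-likelihood test, adjusted p at most 0.05). The 6 CXC genes rose by 1.37-fold (CXCL5) to 2.78-fold (CXCL6), and every ADC library lay above every PBS library for each of them, as was the case for 7.29% of tested genes. The CC genes had lower mean levels per length than the CXC genes in both groups, though CCL20 overlapped CXCL6 in PBS libraries, and CCL2 was the only CC gene that was called. Libraries were made from bulk RNA, in which a change in the number of expressing cells and a change in RNA per cell cannot be told apart.

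The upstream sequences of the 6 CXC genes are shown because they share a run of bases that matches the binding motif of NF-kB. Sequences of 8 of the 10 genes were found in the RefSeq promoter table (GRCh38.p14). CCL2 and CCL5 were the others. The 125 bases before the RefSeq start of transcription are given 5′ to 3′ in the direction of the gene, with the motif in capitals (GGGAATTTCC in 5 genes, GGAATTTCC in CXCL8).
CXCL1: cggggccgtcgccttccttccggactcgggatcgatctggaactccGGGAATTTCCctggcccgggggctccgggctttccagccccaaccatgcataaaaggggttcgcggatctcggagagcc
CXCL2: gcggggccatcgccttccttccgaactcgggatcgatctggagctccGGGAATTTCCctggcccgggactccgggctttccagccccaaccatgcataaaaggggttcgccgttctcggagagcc
CXCL3: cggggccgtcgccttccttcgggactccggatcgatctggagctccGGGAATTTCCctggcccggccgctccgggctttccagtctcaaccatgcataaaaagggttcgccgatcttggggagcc
CXCL5: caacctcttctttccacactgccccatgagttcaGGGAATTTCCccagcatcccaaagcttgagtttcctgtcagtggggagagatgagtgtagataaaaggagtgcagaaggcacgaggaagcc
CXCL6: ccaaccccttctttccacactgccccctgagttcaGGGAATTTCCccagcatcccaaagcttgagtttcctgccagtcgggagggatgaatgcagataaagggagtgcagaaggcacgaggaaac
CXCL8: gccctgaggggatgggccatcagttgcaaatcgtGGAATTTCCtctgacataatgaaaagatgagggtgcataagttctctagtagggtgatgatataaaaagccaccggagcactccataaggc
These runs lie at chr4:73869268-73869392 (+ strand) for CXCL1, chr4:74099196-74099320 (- strand) for CXCL2, chr4:74038690-74038814 (- strand) for CXCL3, chr4:73998678-73998802 (- strand) for CXCL5, chr4:73836553-73836677 (+ strand) for CXCL6 and chr4:73740444-73740568 (+ strand) for CXCL8.

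The letters GGGAATTTCC were chosen from matches to the general kB motif (3 G, any 5 bases, 2 C, found in 54.4% of promoters). They are the match that most of the 8 genes hold in the direction of the gene. Their presence and direction in these genes are thus a description. GGGAATTTCC, searched on both strands in the 250 bases before the start, was found in CXCL1, CXCL2, CXCL3, CXCL5 and CXCL6 and, these included, in 50 of 35116 promoters of the same length (0.142%). The shorter GGAATTTCC, which lies within the longer motif, was found in the same 5 genes and in CXCL8, and in 0.413% of all promoters. The longer match began 79 bases before the start in CXCL1 and CXCL3, 78 in CXCL2, 91 in CXCL5 and 90 in CXCL6. All lay in the direction of the gene, which the choice of letters had required. In CXCL8 the shorter match began 91 bases before the start, and CXCL8 also held TGACTCA, a match to the AP-1 motif TGANTCA (6.57% of promoters), from 137 bases before the start, as CCL7 held TGATTCA. The C/EBP motif TTGCNNAA (9.05% of promoters) was found in CXCL2 alone, on the opposite strand, and TATAAA (10.7% of promoters) in CXCL8, CCL7 and CCL20. CXCL8 held TTGCAAAT just before its kB match, which differs from TTGCNNAA in the last base alone. Absence of the exact letters from CXCL8 is thus no absence of a C/EBP-type match. Neither printed kB motif was found in CCL7 or CCL20. The general kB motif was found in 7 of the 8 genes, CCL20 included and CCL7 not. Its matches in CCL20 included GGGGAAAACC and GGGAAAACCC, in the direction of the gene. These began within the range of distances of the longer match in the CXC genes. Absence of the printed letters from CCL20 is thus no absence of a kB-type match. These are matches of letters, and no binding was measured.

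The printed runs fell into pairs and groups by sequence. CXCL1 and CXCL2 were identical at 93.7% of 126 alignment columns, CXCL1 and CXCL3 at 91.2%, and CXCL2 and CXCL3 at 88.9%. CXCL5 and CXCL6 were identical at 91.3%. Between these 2 groups identity was 53.2% to 55.7%, and CXCL8 matched the other CXC runs at 46.0% to 53.2%. The runs of CCL7 and CCL20, aligned in the same way, matched the CXC runs at 44.7% to 52.9%, a range that overlaps that of CXCL8. The outermost gene start in the deposited table differs from the RefSeq start by 0 bases for CXCL1, by 63 to 181 bases for the other CXC genes and by 8103 bases for CCL20, so positions here refer to the RefSeq start alone.

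CXCL1, a ligand of CXCR2, was the chemokine transcript with the highest level per length in both groups. Its level on the TMM-scaled CPM scale (counts scaled to library size and between libraries) was 342, 327, 307, 311 and 337 in ADC libraries 1 to 5, against 159, 171, 168, 165 and 176 in PBS libraries 1 to 5. The lowest ADC library thus stood well above the highest PBS library. The log2 fold change was 0.95 (SE 0.04, 1.94-fold, edgeR quasi-likelihood adjusted p = 4.2e-18), which gave CXCL1 the smallest p of all 14504 tested genes, while 235 genes had a fold change at least as large. CXCL1 (ENSG00000163739) lies on chromosome 4 from 73869393 to 73871242 on hg38.

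CXCL8, the interleukin 8 gene and a ligand of both CXCR1 and CXCR2, had the second smallest p. Its level was 87.5, 77.2, 75.6, 77.0 and 81.7 CPM in ADC libraries, against 28.96, 27.3, 33.0, 34.5 and 32.8 CPM in PBS libraries. Its log2 fold change was 1.35 (SE 0.06, 2.551-fold, edgeR adjusted p = 9.3e-17). Within the ADC group the 5 values were close together, with library 1 highest.

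CXCL5, another CXCR2 ligand, had the most counts of the 10 genes and the smallest change among the CXC genes. Its level was 377, 395, 380, 369 and 387 CPM in ADC libraries, against 286, 261, 280, 290 and 280 CPM in PBS libraries. Its log2 fold change was 0.45 (SE 0.03, 1.37-fold, edgeR adjusted p = 8.5e-12). The SD over libraries was 2.67% of the mean in ADC and 3.99% in PBS, so this small change was larger than the spread.

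CXCL2 and CXCL3, close paralogs of CXCL1, changed by about as much as it did. CXCL2 had 24.6, 24.4, 19.4, 19.6 and 21.8 CPM in ADC libraries, against 11.5, 9.28, 10.2, 10.96 and 10.1 CPM in PBS libraries, with a log2 fold change of 1.08 (SE 0.09, edgeR adjusted p = 1.1e-10). CXCL3 had 28.4, 27.4, 30.1, 30.5 and 32.8 CPM in ADC libraries, against 15.8, 13.6, 14.3, 16.6 and 13.5 CPM in PBS libraries, with a log2 fold change of 1.02 (SE 0.08, edgeR adjusted p = 1.1e-11). ADC libraries 1 and 2 were the highest of their group for CXCL2 and the lowest for CXCL3. Reads can be shared between these paralogs. Of 50-base words, 12.5% in CXCL2 transcripts, 6.01% in CXCL3 and 4.81% in CXCL1 occur in transcripts of another gene. These shares do not bound the error, since CXCL1 had far more counts (9049 to 11968 in ADC libraries) than CXCL2 (571 to 892). How shared reads were counted is not known, so the separate values and fold changes of these paralogs are uncertain by an unknown amount.

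CXCL6, a ligand of CXCR1 and CXCR2, had the largest fold change of the CXC genes and the lowest level of them. It had 11.3, 10.6, 11.7, 9.76 and 13.9 CPM in ADC libraries, against 5.74, 3.62, 4.12, 4.10 and 3.003 CPM in PBS libraries. The log2 fold change was 1.47 (SE 0.14, 2.78-fold, edgeR adjusted p = 1.4e-09). PBS library 1 was the highest of its group but stayed below every ADC library. The pseudogene PPBPP1 overlaps 4.31% of the exonic bases of CXCL6 on the same strand and had 0 counts in all 10 libraries.

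**Figure D1:**
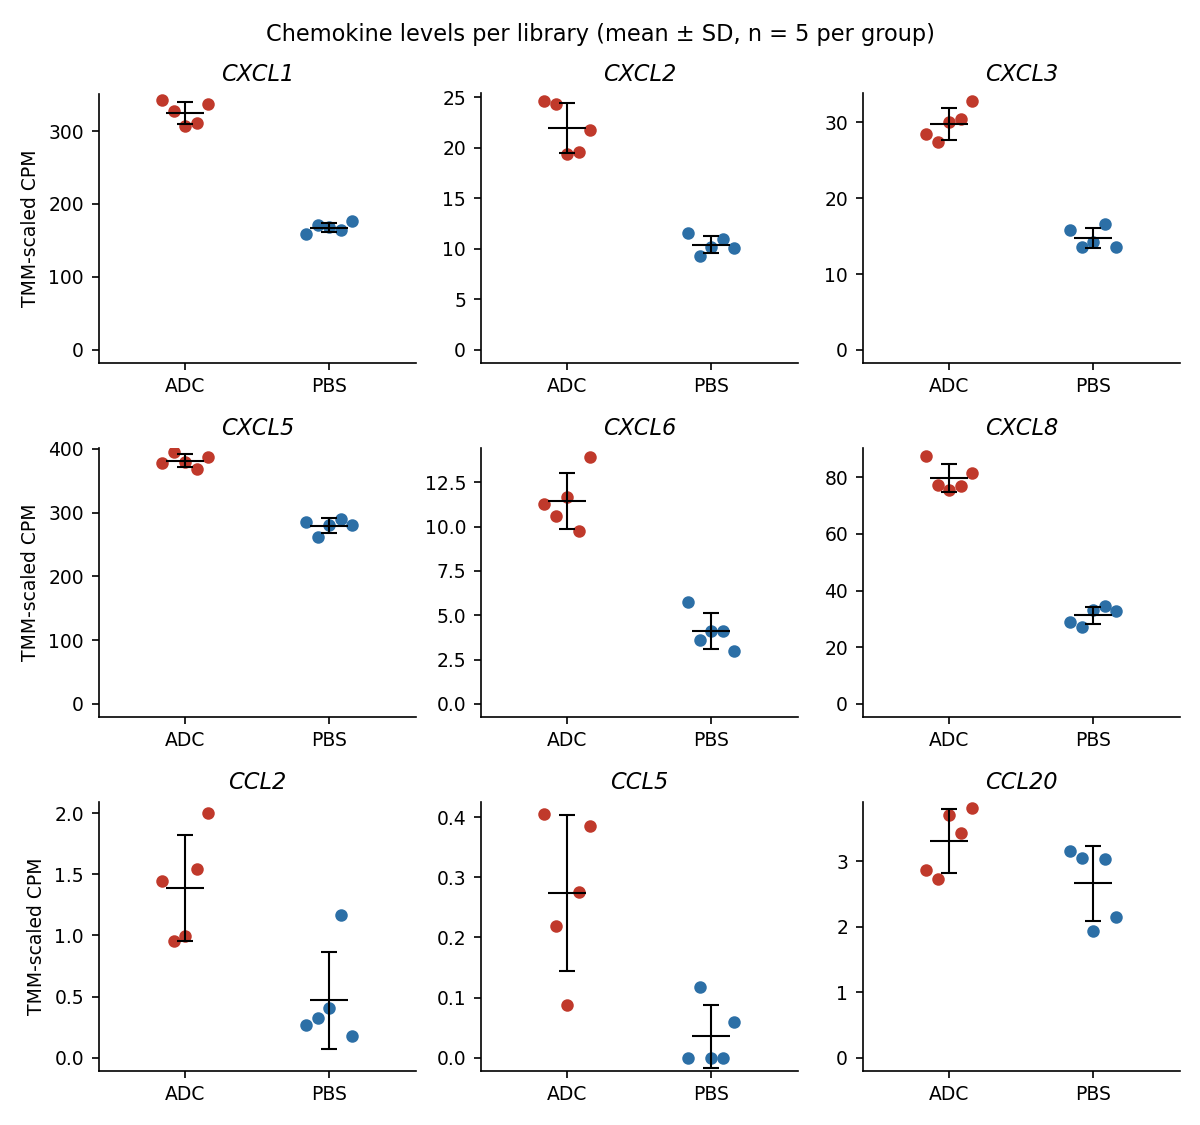
Levels of 9 chemokine genes in TMM-scaled CPM (vertical axes, linear, each with its own range) in the 5 ADC libraries (red, left) and the 5 PBS libraries (blue, right), with the mean as a long dash and the SD as bars. All ADC points lie above all PBS points for the 6 CXC genes, while the groups overlap for CCL2, CCL5 and CCL20. CCL7, with 0 counts in every library, is not drawn.

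CCL2, also called monocyte chemoattractant protein 1, was near the detection limit and had the largest fitted change of the tested members. It had 50, 35, 34, 45 and 57 counts in ADC libraries, against 9, 11, 12, 33 and 6 counts in PBS libraries, or 1.39 ± 0.43 CPM and 0.469 ± 0.399 CPM (SD, n = 5 each). The groups overlapped only through PBS library 4, at 1.17 CPM, which lay above ADC library 2 at 0.957 CPM and ADC library 3 at 0.994 CPM. The log2 fold change was 1.58 (SE 0.41, edgeR adjusted p = 0.0059), and it was 2.22 (SE 0.41, adjusted p = 0.00021) without PBS library 4. The filter on low counts asks for about 10 counts in 5 libraries, which CCL2 reached in all 5 ADC libraries and in 3 of 5 PBS libraries, so its ADC libraries alone sufficed and its PBS libraries alone did not.

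CCL20, which attracts CCR6-bearing lymphocytes and dendritic cells, had 2.86, 2.73, 3.71, 3.44 and 3.82 CPM in ADC libraries, against 3.15, 3.05, 1.94, 3.04 and 2.15 CPM in PBS libraries. The groups overlapped. The log2 fold change of 0.31 (SE 0.18, edgeR adjusted p = 0.25) did not pass.

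CCL5, an attractant of T cells and monocytes, had 14, 8, 3, 8 and 11 counts in ADC libraries, against 0, 4, 0, 0 and 2 counts in PBS libraries. These sum to 44 counts in ADC and 6 counts in PBS, and only the third ADC library overlapped the PBS range. CCL5 did not pass the filter on low counts. In a fit without that filter its log2 fold change was 2.77 (SE 0.94, edgeR adjusted p = 0.032), a fitted value that rests on these few counts, of which 2 may come from 1 read pair. In addition, 15.2% of the 50-base words of CCL5 transcripts occur in transcripts of other genes. CCL7, a monocyte attractant beside CCL2 on chromosome 17, had 0 counts in all 10 libraries. In a single library 0 counts allow up to 3 counts, or 0.0823 to 0.106 CPM, for counting error only.

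**Figure D2:**
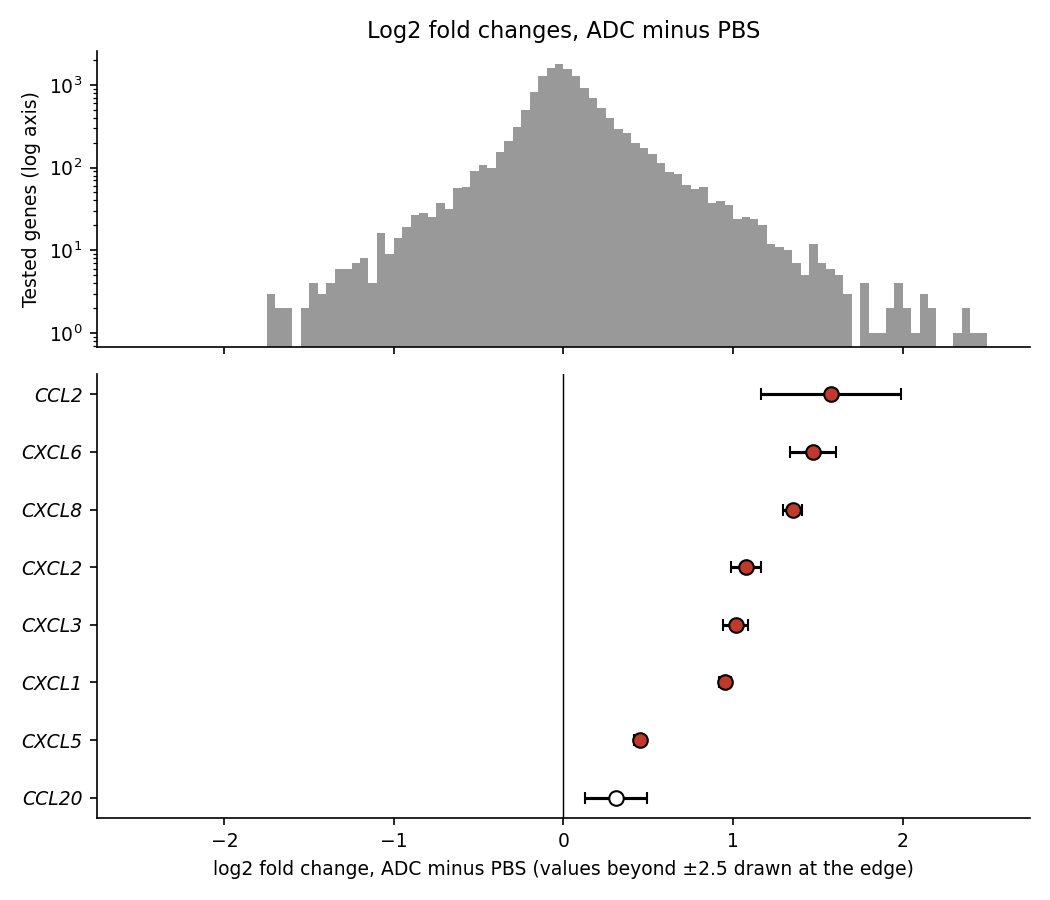
Upper panel, the number of tested genes (vertical log axis) by log2 fold change of ADC minus PBS. Lower panel, the log2 fold change (point) and its standard error (bar) of the 8 tested chemokines, filled red where the gene passed the test at adjusted p of at most 0.05 and white where it did not. CXCL5 (0.45) and CXCL1 (0.95) have the shortest bars, CCL2 (1.58) the longest, and CCL20 (0.31) is the only white point.

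Levels of different genes were compared per length, in TPM (transcript share after division by length, from the counts and the gene lengths of the table). The order in ADC libraries was CXCL1 (983 ± 46 TPM), CXCL5 (589 ± 12), CXCL8 (138 ± 9), CXCL2 (57.4 ± 6.7), CXCL3 (52.7 ± 3.2), CXCL6 (20.5 ± 2.3), CCL20 (8.14 ± 1.13), CCL2 (2.74 ± 0.82), CCL5 (0.711 ± 0.334) and CCL7 (0), with SD over 5 libraries. The order in PBS libraries was the same, from CXCL1 (500 ± 24 TPM) and CXCL5 (426 ± 25) through CXCL8 (53.3 ± 6.4), CXCL2 (26.9 ± 2.5), CXCL3 (25.7 ± 2.8), CXCL6 (7.28 ± 1.74) and CCL20 (6.46 ± 1.38) to CCL2 (0.924 ± 0.814) and CCL5 (0.089 ± 0.132). CXCL2 and CXCL3 overlapped in both groups. CXCL6 and CCL20 overlapped in PBS libraries but were apart in ADC libraries, at 18.02 to 24.1 TPM for CXCL6 and 6.71 to 9.08 TPM for CCL20. Among all 58735 genes CXCL1 ranked 121 by mean TPM in ADC and 280 in PBS, and CXCL8 ranked 1342 in ADC and 3447 in PBS.

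The 10 genes summed to 1769 to 1943 TPM in ADC libraries, against 988 to 1103 TPM in PBS libraries. CXCL1 and CXCL5 together made up 84.9% ± 0.4 of that sum in ADC and 88.5% ± 0.7 in PBS (SD, n = 5 each). CXCL1 took 53.1% ± 0.7 in ADC and 47.8% ± 1.9 in PBS, while CXCL5 took 31.8% ± 1.0 in ADC and 40.7% ± 1.2 in PBS. CXCL8 took 7.42% ± 0.29 in ADC and 5.08% ± 0.40 in PBS. The 4 CC genes together took 0.490% to 0.749% in ADC and 0.525% to 0.905% in PBS.

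**Figure D3:**
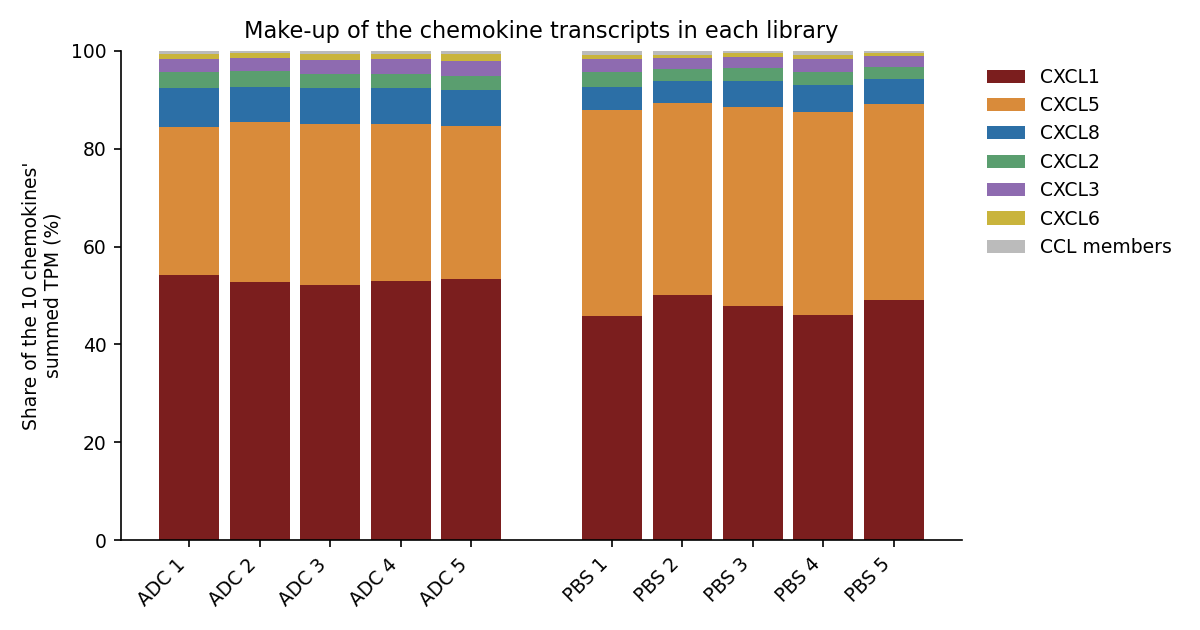
Share of the summed TPM of the 10 chemokine genes (vertical axis, percent) taken by each CXC gene and by the 4 CC genes together, in each ADC library (left) and each PBS library (right). CXCL5 holds 30.4% to 32.9% of each ADC bar and 39.1% to 42.1% of each PBS bar, while CXCL1 and CXCL8 hold larger shares in ADC.

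Whether the genes changed by different amounts was tested on the log2 ratio of each tested member to CXCL1 within a library (CPM plus 0.5), by a two-sided exact permutation test over the 252 assignments of 10 libraries to 2 groups. The smallest p that the test allows is 0.0079, and 7 ratios were adjusted together by Benjamini-Hochberg. CXCL5 lost ground to CXCL1, with a mean log2 ratio of 0.23 ± 0.06 in ADC and 0.74 ± 0.10 in PBS libraries, a difference of -0.50 (exact p = 0.0079, adjusted 0.019). CXCL8 gained on CXCL1, with a mean log2 ratio of -2.02 ± 0.04 in ADC and -2.41 ± 0.14 in PBS, a difference of 0.39 (exact p = 0.0079, adjusted 0.019). CCL20 lost ground, by a difference of -0.67 (exact p = 0.0079, adjusted 0.019). In each of these 3 ratios all 5 ADC libraries lay on the same side of all 5 PBS libraries.

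The ratio of CXCL6 to CXCL1 differed by 0.44 (exact p = 0.032, adjusted 0.056) and did not pass, but passed without PBS library 1 (difference 0.57, adjusted exact p = 0.014). Those of CXCL2 (0.08) and CXCL3 (0.04) did not pass either, with exact p of 0.35 and 0.75. For CCL2 the added 0.5 CPM exceeds the level in 4 of 5 PBS libraries, so its ratio (difference 0.06, exact p = 0.84) does not measure its change relative to CXCL1. The fitted log2 fold changes were 1.58 for CCL2 and 0.95 for CXCL1, and their difference was not tested otherwise. Without ADC library 1 the ratios of CXCL5 (-0.48), CXCL8 (0.37) and CCL20 (-0.61) each had an adjusted exact p of 0.056, and CCL20 also lost its call without ADC library 2 (-0.61, adjusted exact p = 0.056).

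**Figure D4:**
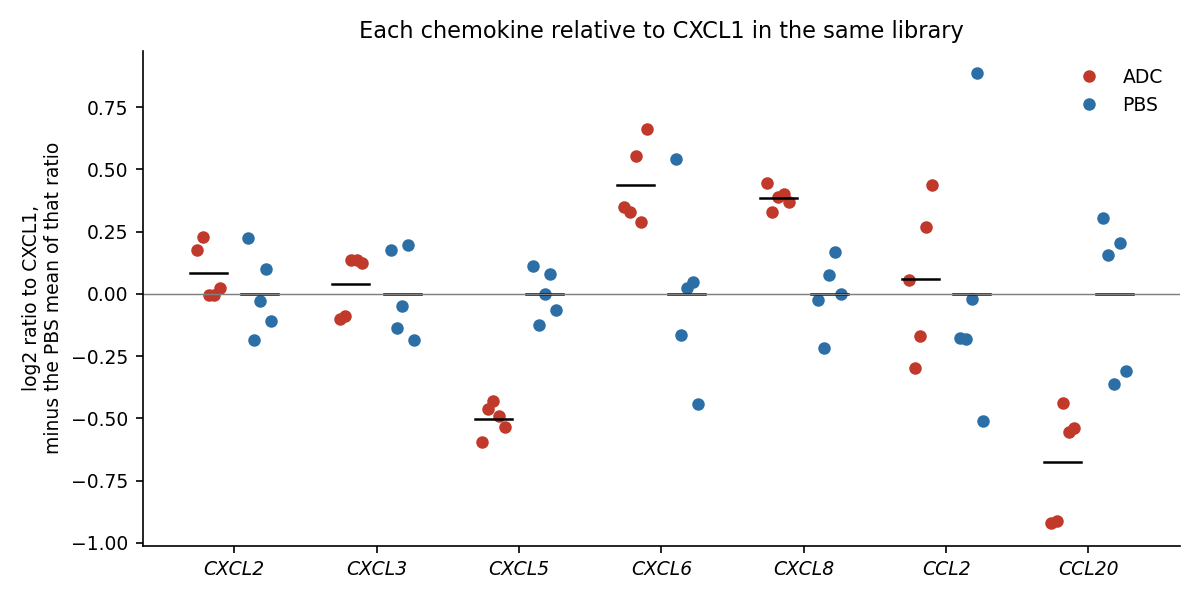
Log2 ratio of each tested chemokine to CXCL1 in the same library, minus the PBS mean of that ratio (vertical axis), for ADC libraries (red, left of each pair) and PBS libraries (blue, right), with group means as lines. The red points of CXCL5 and CCL20 lie below all of their blue points, and those of CXCL8 above all of theirs. The ratio of CCL2 is set largely by the added 0.5 CPM.

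Libraries of a group differed little in the CXC genes. The SD of CPM was 2.67% to 13.6% of the mean over the 6 CXC genes in ADC and 3.94% to 24.7% in PBS, with CXCL6 the most variable in both. For the 8 tested members, ADC library 5 was the highest of its group for 4 and ADC library 1 for 3. PBS library 4 was the highest of its group for 4 and PBS library 1 for 3.

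The 6 CXC genes lie in one cluster on chromosome 4, from the start of CXCL8 at 73740506 to the end of CXCL2 at 74099293 (hg38), which spans 359 kb and holds 16 annotated genes. The 10 genes of the cluster that are not members stayed below the filter. They include PF4, with 2 to 18 counts per library, and PPBP and PF4V1, with 0 in all, which encode chemokines of platelets. The cluster is bordered by genes that were not called. Within 700 kb on either side 5 genes were tested, COX18 (0.00), ANKRD17 (0.08), AFP (-0.56), MTHFD2L (0.10) and the growth factor gene AREG (0.59), and none passed, with edgeR adjusted p of at least 0.21. MTHFD2L starts 373.7 kb from the start of CXCL8, just beyond CXCL2.

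**Figure D5:**
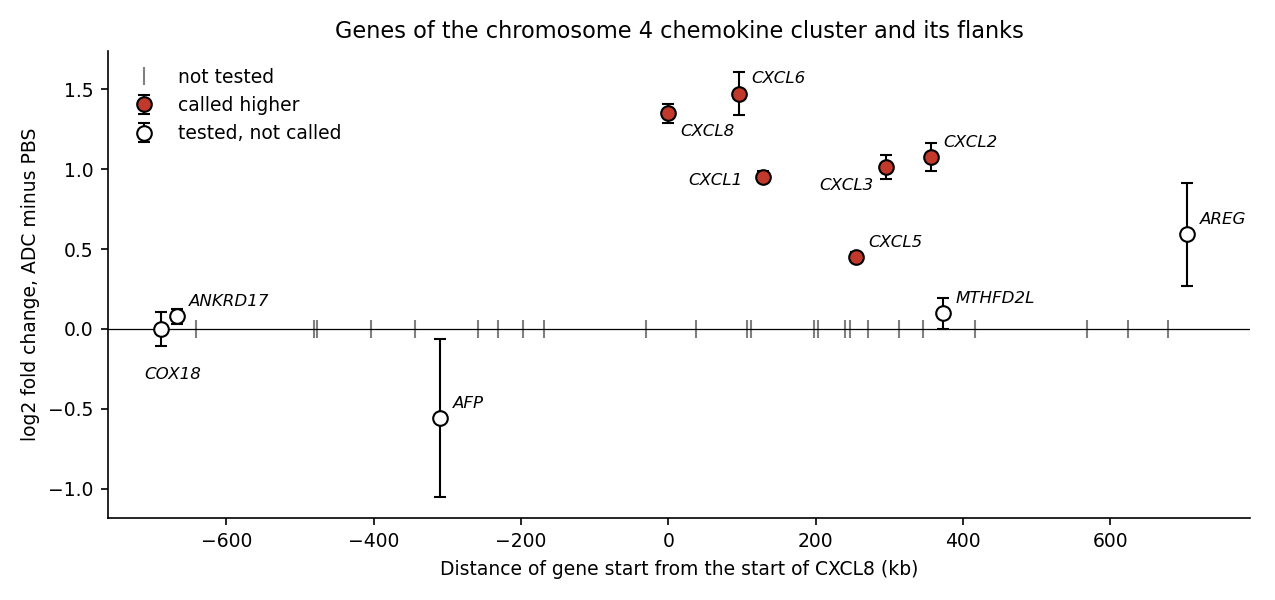
Log2 fold change of ADC minus PBS (points, with standard errors as bars) for genes of chromosome 4 by the distance of their start from that of CXCL8 in kb. Ticks on the zero line are genes with too few counts to test. The 6 CXC genes (red, called higher) lie between 0.45 and 1.47, and the 5 tested genes of the flanks (white) were not called.

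Other chemokine ligands were scarcely detected. Of 38 further ligand genes 36 were in the table, 26 of them had 0 counts in all 10 libraries, 30 never passed 3 counts and 0 were tested. The interferon-induced CXCL9, CXCL10 and CXCL11 had at most 2 counts in any library. CXCL12, which signals through CXCR4, had 16 counts in ADC and 2 in PBS over all libraries, with 0 in ADC libraries 3 and 4. CXCL14 had 22 in ADC and 4 in PBS, while CXCL16 went the other way, with 7 in ADC and 19 in PBS.

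Chemokine receptors, taken over the whole receptor family, were largely undetected. Of 23 receptor genes 14 had 0 counts in all libraries and 17 never passed 3 counts. The receptor gene CCR10 had 3.09 ± 0.57 CPM in ADC and 2.53 ± 0.44 CPM in PBS (SD, n = 5 each), with a log2 fold change of 0.28 (edgeR adjusted p = 0.31). The atypical receptor gene CCRL2 had a log2 fold change of -0.04 (edgeR adjusted p = 0.96). CXCR1 and CXCR2, the receptors of the 6 CXC members, had 0 counts in all 10 libraries.

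Interleukin 1 is a classical inducer of these chemokines. Of 16 genes of inducing cytokines and their receptors 14 were tested, of which 4 were higher, 1 was lower and 9 were not called. The median log2 fold change of the list was 0.02, against -0.00 over all tested genes. Of all 14504 tested genes 1562 (10.8%) were higher and 1456 were lower, as a background for this list and those that follow. The lists were chosen with earlier results of these data known. Whether any list differed from that background was not tested. IL1A was higher (0.84, SE 0.05, edgeR adjusted p = 1.4e-14), with 124 ± 9 CPM in ADC and 69.6 ± 3.3 CPM in PBS. IL1B (2.63, SE 0.13) was also higher, as was the receptor antagonist gene IL1RN (2.18, SE 0.35). IL1RN had 39 to 62 counts in ADC libraries and 7 to 15 in PBS libraries, so its PBS libraries alone did not meet the low-count filter. The receptor gene IL1R1 (0.96, SE 0.20) was higher too. The kinase gene IRAK1, which relays signals from that receptor, was lower (-0.22, SE 0.03). TNF, which encodes tumour necrosis factor, reached at most 7 counts in a library, too few to test.

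Of 14 NF-kB factors and inhibitors 6 were higher, 0 lower and 8 not called, with a median of 0.16. NFKBIZ (1.06, SE 0.06) and BCL3 (1.195, SE 0.12), which encode nuclear regulators of NF-kB, were higher. The inhibitor gene NFKBIA (0.31, SE 0.04) was also higher, while the subunit genes RELA (-0.08) and NFKB1 (-0.05) were not called. Of 10 AP-1 and C/EBP genes 4 were higher, 2 lower and 4 not called, with a median of 0.19. CEBPD was higher (1.45, SE 0.09), as were JUND (0.56, SE 0.06) and JUNB (0.27, SE 0.05). FOSL1 (-0.15, SE 0.03) and JUN (-0.16, SE 0.03) were lower.

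Of 10 genes that act on the stability of short-lived mRNAs 2 were higher, 3 lower and 5 not called, with a median of -0.04. ZC3H12A, an RNase that cleaves chemokine and cytokine mRNAs, was higher (0.93, SE 0.07, edgeR adjusted p = 2.0e-11), with 33.1 ± 2.7 CPM in ADC and 17.3 ± 1.2 CPM in PBS. DUSP1, a phosphatase of the p38 pathway, was also higher (0.20, SE 0.06). KHSRP (-0.19), HNRNPD (-0.15) and ZFP36L1 (-0.11), whose products bind AU-rich mRNAs, were lower, but ZFP36L1 was not called with scaling to library size alone (-0.08, edgeR adjusted p = 0.095). Of 14 proteoglycans and proteases that bind or cleave chemokines 13 were tested, with 7 higher, 0 lower and a median of 0.26. The smallest adjusted p were those of the gelatinase gene MMP2 (0.66, SE 0.05), SDC3 (0.34, SE 0.04) and MMP14 (0.27, SE 0.03). The largest log2 fold change was that of SDC2 (1.51, SE 0.51, edgeR adjusted p = 0.033), with 94 counts in ADC and 32 in PBS. SDC2 had 2 to 14 counts per PBS library, so its PBS libraries alone did not meet the low-count filter.

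The genes with the pattern most like that of the 2 most abundant members were named by the root-mean-square difference of centred log2 CPM over the 10 libraries. For CXCL5 they were SOD2 (difference 0.04), GPRC5A (0.06) and LRIG1 (0.06), with log2 fold changes of 0.49, 0.38 and 0.46. For CXCL1 they were ZC3H12A (0.07), SMOC1 (0.08) and COL16A1 (0.08), with log2 fold changes of 0.93, 1.08 and 0.91.

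Markers of leukocytes, a usual source of chemokines in tissue, were mostly at or near 0. Of 20 leukocyte markers 12 had 0 counts in all libraries, CD3E and LYZ among them, and PTPRC had 2 counts in all. The 20 summed to 2.13 to 3.08 CPM in ADC libraries, against 0.852 to 2.70 CPM in PBS libraries. Most of that sum came from CSF1R, at 2.10 ± 0.34 CPM in ADC and 1.26 ± 0.68 CPM in PBS (edgeR adjusted p = 0.081). CD14, with too few counts to test, had 60 counts in ADC and 22 in PBS over all libraries, while CD79A had 4 in ADC and 21 in PBS. The 6 endothelial markers summed to 11.1 to 13.2 CPM in ADC, against 8.42 to 9.99 CPM in PBS. Of these PECAM1 was called (1.77, SE 0.28, edgeR adjusted p = 2.4e-05), and TIE1, not called, made up most of the sum. The part of that difference in the chemokine values was not tested.

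Total counts were 28638057 to 36463724 in ADC libraries and 28262162 to 34473795 in PBS libraries, and mitochondrial transcripts took 1.30% to 2.11% of counts in ADC and 1.19% to 2.63% in PBS. Of 8 meningioma markers VIM was abundant, at 3538 ± 67 CPM in ADC and 3398 ± 123 CPM in PBS. NF2 had 52.1 ± 1.3 CPM in ADC and 56.6 ± 3.3 CPM in PBS. PGR had 0 counts, PTGDS had at most 1 and DSP at most 4 in a library. MUC1 had 2 to 33 counts per library, CDH11 had 0 to 15 and SSTR2 had 3 to 22. All of the 8 but VIM and NF2 were thus nearly absent from the line.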

How the data were processed

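Poly(A)-selected RNA of 10 libraries was sequenced, per the labels' protocols. The authors' deposited table holds raw counts per gene. HISAT2, HISAT and TopHat2 and the build hg38 are named in the submitters' processing notes. The counting tool and strand setting are not given in the sources used, and all 58735 identifiers match GENCODE 29. Even values made up 65.4% to 67.3% of counts from 2 to 21, so both mates of a pair may be counted.

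Genes were filtered with filterByExpr (minimum count 10, minimum total 15), scaled by TMM (factors 0.979 to 1.02) and tested with edgeR 4.0.16 (R 4.3.3), two-sided, over all 14504 tested genes. Fits were tested on simulated data. SE is the absolute log2 fold change over the root of F. DESeq2 1.42.0 and limma 3.58.1 were alternatives. Pairs of libraries within a group had a chi-square of 5.18 to 16.5 times its degrees of freedom, so none was counted as a copy. The labels do not state separate cultures, so p-values measure the spread between these libraries, which may be technical. The members and lists were chosen with earlier results of these data known. The rule for named genes took the members, called ligands and receptors (0 were), the nearest patterns and, of each other list, the 3 called genes per direction with the smallest adjusted p. Other genes named from the lists (such as IL1R1, TNF, RELA, NFKB1, SDC2, CXCL12, CXCL14, CCR10 and CCRL2), the markers, the flanking genes and the genes with the upstream motif were chosen after their values were seen.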

Additional observations from a re-analysis of the deposited data

Results flagged for a closer look

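CCL2 in PBS library 4 stood apart from the other 4 PBS libraries, at 1.17 CPM (33 counts), where the others had 6 to 12 counts. The gap was wider than the critical value of Dixon's test for 5 values. It was the only such value among 18 groups of 5 checked, of which chance flags about 1 in 20. Without that library the log2 fold change of CCL2 was 2.22 in place of 1.58.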

How the results depend on the processing

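The 7 called members were called under every alternative that tested them, and CCL20 under none, with CCL2 not tested at a mean of at least 1 CPM (6 members higher) and CCL5 added without a low-count filter (8 members higher). Their log2 fold changes ranged from 0.93 to 0.98 for CXCL1, 1.31 to 1.39 for CXCL8, 0.43 to 0.47 for CXCL5, 1.38 to 1.63 for CXCL6 and 1.37 to 2.22 for CCL2. Over the settings 2491 (without ADC replicate 1) to 3362 (DESeq2) genes were called, and 63.3% of calls were higher with scaling to library size alone, against 51.8% in the main fit. Replicate numbers did not pair the libraries (correlation of same-numbered deviations -0.01 to 0.03, and 1 of 5 ADC libraries correlated best with its own number). With the replicate number as a block 3152 genes were called in place of 3018. For the ratios to CXCL1 the sign-flip test with that block called 0 of 7, since it cannot give a p under 0.0625, and leaving out a library gave 0 (ADC replicate 1) to 4 calls in place of 3. Ratios that were not called changed sign for CCL2 with a pseudocount of 1 CPM (-0.23), without ADC replicate 5 (-0.04) and without PBS replicate 5 (-0.07), and for CXCL3 without PBS replicate 5 (-0.0053), and the cause was not tested. Over the left-out libraries the ratio ranged from -0.068 to 0.28 for CCL2, from -0.0053 to 0.0904 for CXCL3 and from 0.038 (without PBS replicate 2) to 0.14 (without PBS replicate 1) for CXCL2, which was not called in any. In a check of the gene lists chosen after seeing the data, 3 genes gained a call. CSF1R passed with limma-voom (adjusted p = 0.044) and the replicate block (0.031), VIM with library size alone (0.015) and the block (0.046), and CEBPB with DESeq2 (0.039) and library size alone (0.022), which made 5 AP-1 and C/EBP genes higher in place of 4. ZFP36L1 lost its call with library size alone, and DESeq2 gave SDC2 no adjusted p. Depth limits CCL2, CCL5, CCL7 and CCL20.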

Other observations

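The upstream motif of the CXC members was also looked up in other genes. GGGAATTTCC lies within 250 bases before the RefSeq start of 43 further genes, of which 18 were tested. Of these 5 were higher (27.8%, where 10.8% of all tested genes were), 0 were lower and 13 were not called, with a median log2 fold change of 0.08. The 5 were NFKBIZ (1.06, SE 0.06), the costimulatory receptor gene TNFRSF9 (1.29, SE 0.28), the autophagy receptor gene OPTN (0.49, SE 0.05), NFKBIA (0.31, SE 0.04) and STXBP3 (0.17, SE 0.06). These genes were looked up after the values were seen, and no test was made of the list. NFKB1, NFKBIB and REL, which hold the motif too, did not pass the test, at -0.05, -0.13 and 0.19 on the log2 scale.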
